A study of Mus musculus with 12 samples.

Results

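Complement, coagulation and fibrinolysis are 3 linked protein cascades, and 37 of their genes, chosen by symbol, were followed through RNA sequencing of injured mouse hearts. All 37 were among the 46983 gene symbols of each deposited table, and 33 had a mean value of 10 or more in the non-cardiomyocyte fraction (NonCM), against 27 in the cardiomyocyte fraction (CM). The hearts came from MCM/+ mice with floxed Wls (Wls fl/fl) and from control mice that carried MCM/+ alone, all labelled as strain BL6/C57. MCM is the usual short name of a tamoxifen-activated Cre recombinase, and Wls is the carrier that brings Wnt proteins to the cell surface. Every mouse, controls included, had 3 tamoxifen doses between postnatal days 1 and 3, a myocardial infarction at postnatal day 2, and collection 2 weeks after that surgery, although the labels call the cells adult. Both fractions were taken from each heart, with 3 hearts per condition, which gives 3 libraries in each of the 4 groups of fraction and genotype. The promoter that drives MCM is not given in the labels, and no analysed group was uninjured or carried floxed Wls without MCM.

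In the complement cascade, C1q binds immune complexes, dying cells and synapses, the proteases C1r and C1s cut C4 and C2, and all routes meet at the cleavage of C3. The fragments C3a and C5a call in leukocytes through receptors, while membrane proteins such as Cd55 protect host cells. Coagulation starts when tissue factor meets factor VIIa and ends in a crosslinked fibrin clot, thrombomodulin and tissue factor pathway inhibitor hold it back, and plasmin made by the plasminogen activators dissolves the clot. The liver makes most of the circulating proteins, whereas in heart tissue macrophages are known for C1q and factor XIII A, endothelium for von Willebrand factor and thrombomodulin, and fibroblasts for C3 and the C1 inhibitor.

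Library depth and the libraries themselves bear on every value that follows. The deposited values correspond to 1160146 to 10281214 whole reads per library, and the shallowest, NonCM control replicate 1, holds a normalized value of 5.54 per read. Wls, the targeted gene, had values of 57.3 to 93.9 in CM of Wls fl/fl hearts, against 201 to 243 in CM of control hearts (log2 difference -1.45, limma adjusted p = 0.00389). In NonCM it had 316 to 356 in Wls fl/fl libraries against 374 to 427 in control libraries (log2 difference -0.28, limma adjusted p = 0.0831) and was not called. In each group, replicate 3 lay close to a weighted mean of replicates 1 and 2. Its mean squared residual was 1.003 to 1.079 times the counting variance, against 1.111 to 1.793 for replicates 1 and 2 fitted the same way. Replicate 3 may therefore not be an independent heart, although in CM of Wls fl/fl hearts it had 1.079 and replicate 1 had 1.111. Results are given with and without replicate 3, and the p-values speak only of the scatter among these libraries. Reads of 16 cardiomyocyte marker genes made up 6.64% ± 0.116 of NonCM of Wls fl/fl hearts and 7.84% ± 0.368 of NonCM of control hearts (SD, n = 3 each). In CM they made up 11.7% ± 0.657 in Wls fl/fl hearts and 11.5% ± 0.110 in control hearts, so NonCM libraries held much cardiomyocyte RNA. Both fractions are bulk samples, in which more cells of a type and more RNA per cell cannot be told apart.

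In control hearts most of these genes were higher in NonCM than in CM. Of the 33 members tested in the joint fit of all 12 libraries, 26 were higher in NonCM and 3 were lower by edgeR's quasi-likelihood test with Benjamini-Hochberg adjustment over all genes (adjusted p under 0.05), where 28.9% and 28.2% of the 13395 genes tested were called in these directions. The median difference was 2.01 on the log2 scale over members and 0.00 over all genes. C2, Cfp, C5ar1, F5 and Plaur, among the 26 here and below, had a CM mean under 10. They entered this fit only through NonCM, where a mean of 10 or more was enough, so the filter favoured their direction. F10 entered in the same way and was not called. The same filter was applied to all genes. C1qa, a chain of C1q, reached 117 ± 17.3 RPKM in NonCM and 5.39 ± 1.08 RPKM in CM of control hearts (SD, n = 3 each; RPKM are reads per kilobase of exon, scaled to library size), a log2 difference of 4.51 with adjusted p = 7.3e-16. F13a1, the catalytic A chain of the fibrin-crosslinking factor XIII, differed by 4.503.

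The 3 members lower in NonCM all belong to coagulation. Tfpi, which blocks tissue factor and factor Xa, stood at 20.9 ± 1.49 RPKM in NonCM and 29.3 ± 1.30 RPKM in CM of control hearts (log2 difference -0.51, edgeR adjusted p = 9.9e-07). F3, tissue factor itself, had 8.16 ± 0.770 RPKM in NonCM and 10.95 ± 0.123 RPKM in CM (log2 difference -0.47, edgeR adjusted p = 0.00056). F8, the cofactor of factor IX, had a log2 difference of -0.62 and was no longer called without CM control replicate 2 or NonCM control replicate 2, when its adjusted p was up to 0.0825. DESeq2 did not call it either (adjusted p = 0.0770), nor did edgeR without a minimum value. With replicate 3 of all groups left out, 26 members were higher and 2 lower in NonCM, F8 again not among them. The share of all genes called without replicate 3 is not given for this contrast. For C2, leaving out CM control replicate 1 or NonCM control replicate 3 ended the call, with an adjusted p of up to 0.0764. Masp1, Cd59a, Cd46 and F10 had log2 differences of -0.29, -0.16, 0.01 and 0.91 and were not called.

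**Figure D1:**
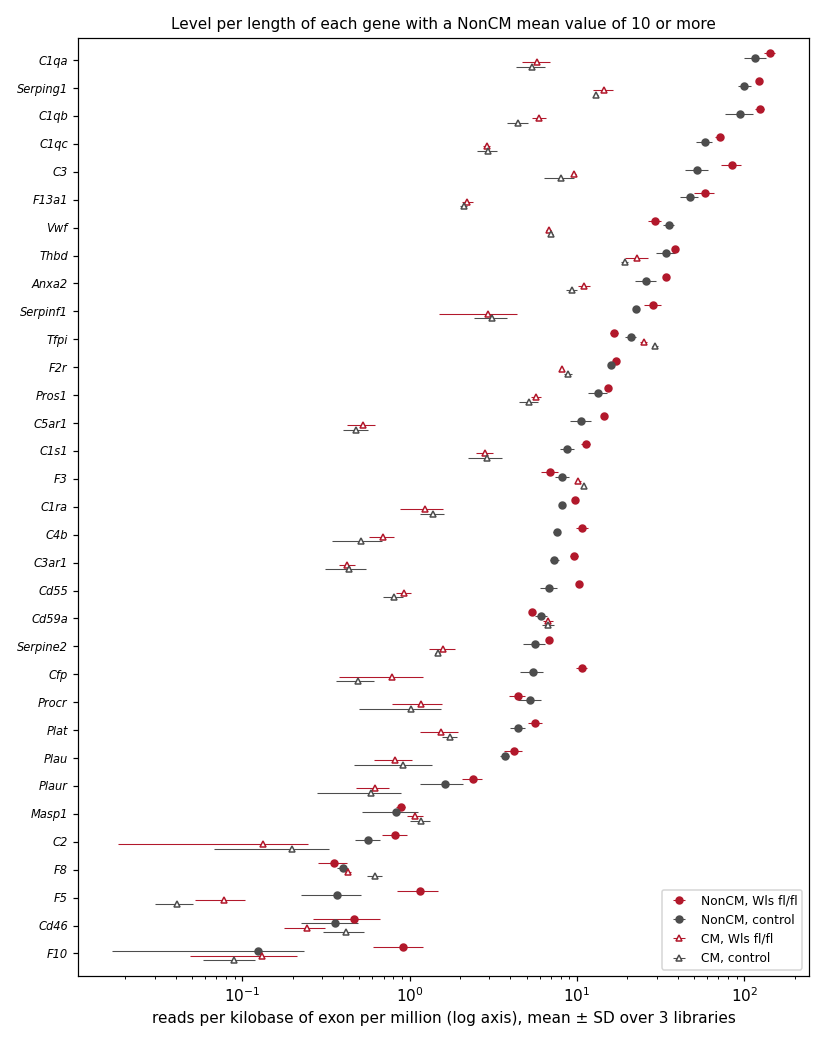
Mean level of each of the 33 members with a NonCM mean value of 10 or more, in RPKM on a log axis, in the 4 groups of fraction and genotype, with SD over 3 libraries as bars. Most NonCM symbols lie right of the CM symbols of the same gene, while those of Tfpi, F3, F8, Masp1 and Cd59a lie left of them. C1qa is the highest member in NonCM at 142 RPKM in Wls fl/fl hearts and 117 RPKM in control hearts.

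On this per-length scale the highest NonCM members in control hearts were C1qa, Serping1, C1qb, C1qc and C3, between 52.4 and 117 RPKM, with F13a1 next at 47.2 RPKM. C1qa, Serping1 and C1qb did not differ beyond their SDs, nor did C1qc, C3 and F13a1. In CM of control hearts the order was led by Tfpi at 29.3 ± 1.30 RPKM and Thbd at 19.3 ± 0.875 RPKM, followed by Serping1 at 12.96 ± 0.317 RPKM and F3 at 10.95 ± 0.123 RPKM. Factor VII, factor B and heparin cofactor II were low in both fractions. F7, which encodes the factor VII of the tissue factor route, had 0.195 ± 0.195 RPKM in NonCM and no read in CM of control hearts, and Cfb and Serpind1 stayed below 0.5 RPKM in every group.

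In NonCM, 5 complement genes, 1 clotting factor and 1 fibrinolysis gene rose in Wls fl/fl hearts, and 1 anticoagulant gene fell. Of the 33 members tested, 7 rose in Wls fl/fl hearts and 1 fell by limma on log2(value + 1) with adjustment over all genes, where 2.47% and 2.03% of the 13271 genes were called up and down. The risen genes were C4b, C3, Cfp, C3ar1, Cd55, F5 and Anxa2, and the fallen one was Tfpi. F10 passed the minimum value only through the Wls fl/fl libraries and is set aside in the next counts, which leaves 32 members. Their median log2 difference was 0.30, against 0.02 over all genes, and 26 of them lay above 0, where 53.2% of all genes did. For 18 of the 32 the Wls fl/fl libraries all lay above the control libraries, and for 1, Tfpi, all lay below, where 13.9% and 12.6% of all genes separated in these ways. At an unadjusted p under 0.05 there were 20 up and 2 down by limma, where 10.5% and 8.83% of all genes were. Without replicate 3 of both genotypes none of the 32 members tested was called by limma or by edgeR. Of all genes, 0% were called by limma, and 0.211% up and 0.0377% down by edgeR. At an unadjusted p under 0.05 there were 14 members by limma and 16 by edgeR. The share of all genes at such a p without replicate 3 was not counted. The NonCM statements below share the limit that no member was called without replicate 3.

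**Figure D2:**
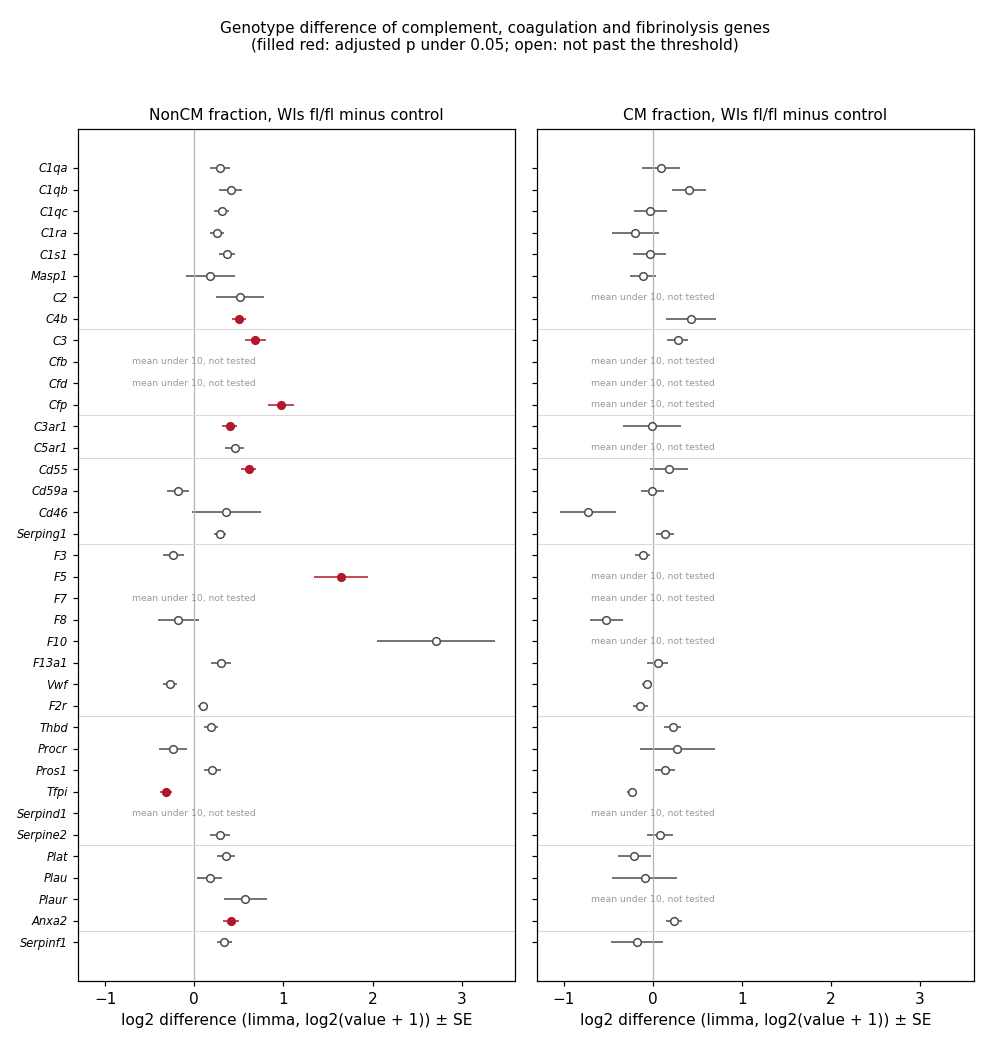
Log2 difference of every member tested, Wls fl/fl minus control, with its standard error (limma), in NonCM at the left and in CM at the right, members ordered by role. In NonCM 27 of 33 members lie right of 0, F10 among them, and 8 were called, and in CM 12 of 27 lie right of 0 and none was called.

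Of the 8 genes that start the classical and lectin routes, C4b alone rose by limma in NonCM. Groups were separated upward for 6 of the 8, as they were for 13.9% of all genes. C4b, whose product C4 is the first substrate of C1s, had values of 477, 401 and 450 in Wls fl/fl libraries against 316, 322 and 298 in control libraries (log2 difference 0.50 ± 0.08 SE, limma adjusted p = 0.0122). All 3 Wls fl/fl libraries lay above all 3 control libraries. The call was lost without Wls fl/fl replicate 3 (limma adjusted p = 0.0991) and without control replicate 3 (0.0625). C4b has a close copy in the mouse genome, C4a, and how reads shared between them were counted is not given.

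None of the 3 C1q chain genes was called by limma in NonCM. C1qa had values of 1154, 975 and 1079 in Wls fl/fl libraries against 721, 987 and 928 in control libraries. The groups overlapped, because control replicate 2 exceeded Wls fl/fl replicate 2, and control replicate 1 was the lowest (log2 difference 0.29 ± 0.11 SE, limma adjusted p = 0.192). C1qb had a log2 difference of 0.41 and C1qc of 0.31 (limma adjusted p = 0.116 and 0.0841), and both had separated groups. The 3 genes lie side by side on chromosome 4 of mm10, between positions 136880129 and 136898803. The proteases that C1q carries had log2 differences of 0.26 for C1ra and 0.37 for C1s1 (limma adjusted p = 0.110 and 0.0530), each with separated groups, and each has a close copy, C1rb or C1s2, so their counts are uncertain. C2, cut together with C4, had 0.51 ± 0.27 SE with separated groups, and Masp1, a protease of the lectin route, had 0.18 with overlapping groups. Masp1 was the only member tested in NonCM whose sign differed between tools, at -0.12 by edgeR and by limma-voom and -0.06 by DESeq2.

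C3 and properdin, which stand at the centre of the cascade and of its alternative amplification loop, both rose in NonCM. C3 had values of 3605, 2741 and 3052 in Wls fl/fl libraries against 2262, 1693 and 1889 in control libraries (log2 difference 0.69 ± 0.12 SE, limma adjusted p = 0.0165). Every Wls fl/fl value exceeded every control value. Cfp, which encodes properdin, the stabiliser of the C3 convertase, had 127, 145 and 131 in Wls fl/fl libraries against 55.4, 73.2 and 76.8 in control libraries (log2 difference 0.97 ± 0.15 SE, limma adjusted p = 0.00939). Its groups were also separated by a wide gap. The C3 call was lost without Wls fl/fl replicate 3 (limma adjusted p = 0.0991) or control replicate 3 (0.0763), and the Cfp call without Wls fl/fl replicate 2 (0.0765) or 3 (0.0755). The other loop enzymes were barely detected, with Cfb at 1.33 to 3.74 in Wls fl/fl libraries against 0 to 1.53 in control libraries. Cfd, factor D, had 5 reads in all in Wls fl/fl libraries and 0 in control libraries, and neither gene was tested.

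The starts of these genes are shown because they hold the DNA just before and after the 5′ end of C3, Cfp, Cd55, C3ar1 and Tfpi, members that moved by limma in NonCM, and of C1qb, one that was not called by limma. Each is a RefSeq promoter window on GRCm38.p6, with 250 bases before and 50 after the gene's start (for Tfpi, the first of 2 windows), read 5′ to 3′ on the gene's minus strand. Capitals mark the matches to 9 motifs listed with them.
C3, chr17:57228087-57228386: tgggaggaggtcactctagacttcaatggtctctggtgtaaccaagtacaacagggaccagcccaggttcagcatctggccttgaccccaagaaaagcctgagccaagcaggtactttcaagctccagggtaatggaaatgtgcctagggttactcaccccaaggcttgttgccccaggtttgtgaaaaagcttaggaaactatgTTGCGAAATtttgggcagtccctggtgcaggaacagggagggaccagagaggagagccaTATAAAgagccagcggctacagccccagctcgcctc
Cfp, chrX:20931506-20931805: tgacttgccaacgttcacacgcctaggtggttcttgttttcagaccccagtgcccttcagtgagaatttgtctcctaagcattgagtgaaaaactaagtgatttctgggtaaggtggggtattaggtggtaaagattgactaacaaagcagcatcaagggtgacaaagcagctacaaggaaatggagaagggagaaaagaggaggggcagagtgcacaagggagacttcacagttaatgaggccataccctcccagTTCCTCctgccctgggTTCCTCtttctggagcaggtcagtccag
Cd55, chr1:130462695-130462994: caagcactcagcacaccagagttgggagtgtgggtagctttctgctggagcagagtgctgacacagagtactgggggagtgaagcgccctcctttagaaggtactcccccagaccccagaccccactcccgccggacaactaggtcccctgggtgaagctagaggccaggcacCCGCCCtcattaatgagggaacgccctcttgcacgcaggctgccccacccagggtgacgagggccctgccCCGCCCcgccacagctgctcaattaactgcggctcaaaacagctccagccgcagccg
C3ar1, chr6:122856108-122856407: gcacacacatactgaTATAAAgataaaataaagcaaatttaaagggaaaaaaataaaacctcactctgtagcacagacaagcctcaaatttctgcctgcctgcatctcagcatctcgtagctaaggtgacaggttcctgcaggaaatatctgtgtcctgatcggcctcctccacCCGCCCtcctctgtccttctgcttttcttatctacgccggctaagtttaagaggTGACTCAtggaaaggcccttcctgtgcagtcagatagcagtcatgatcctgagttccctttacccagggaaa
Tfpi, chr2:84476710-84477009: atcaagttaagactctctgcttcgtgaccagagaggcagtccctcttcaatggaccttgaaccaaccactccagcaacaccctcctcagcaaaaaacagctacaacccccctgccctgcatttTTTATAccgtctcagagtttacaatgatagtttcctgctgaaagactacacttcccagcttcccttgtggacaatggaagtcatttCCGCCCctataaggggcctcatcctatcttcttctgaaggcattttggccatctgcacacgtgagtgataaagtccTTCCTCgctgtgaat
C1qb, chr4:136886151-136886450: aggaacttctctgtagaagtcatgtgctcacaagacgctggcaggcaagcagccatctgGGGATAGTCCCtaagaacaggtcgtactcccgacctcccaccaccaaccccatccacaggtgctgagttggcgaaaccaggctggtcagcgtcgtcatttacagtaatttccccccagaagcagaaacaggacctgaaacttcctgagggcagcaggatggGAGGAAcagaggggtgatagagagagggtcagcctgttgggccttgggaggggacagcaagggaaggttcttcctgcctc

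The motifs were searched on both strands as the TATA box TATAAA, the CCAAT box CCAAT, the interferon response element (GAAA and GAAA parted by 2 bases), the STAT site TTCNNNGAA, the PU.1 core GAGGAA, the C/EBP site TTGCNNAAT, the NF-kappaB site (GGGA and TCC parted by 3 bases), the AP-1 site TGANTCA and the Sp1 GC box GGGCGG. C3 holds a C/EBP match from base -45 to -37 and a TATA match from base 14 to 19, counted from the start base as 0. Cfp holds 2 PU.1 core matches on the opposite strand, and C1qb holds 1 PU.1 core match and a pair of overlapping NF-kappaB matches on opposite strands. Cd55 holds 2 GC boxes and no TATA match, C3ar1 a TATA, a GC box and an AP-1 match, and the Tfpi window shown a TATA, a GC box and a PU.1 core match. The second Tfpi window holds an NF-kappaB, a PU.1 core and a GC box match and no TATA match. Over the 30 promoters matched to 27 members, the C/EBP motif was found in 2, the PU.1 core in 11, the NF-kappaB motif in 2, the AP-1 motif in 6 and the GC box in 12. The TATA box was found in 5, the CCAAT box in 6, the interferon element in 2 and the STAT motif in 2. Of all 32851 RefSeq promoters, 2.4% held the C/EBP motif, 28.3% the PU.1 core, 4.59% the NF-kappaB motif, 7.81% the AP-1 motif, 35.7% the GC box, 13.6% the TATA box, 37.4% the CCAAT box, 3.44% the interferon element and 8.3% the STAT motif. A match describes these letters and not a bound site.

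Both receptor genes for the inflammatory fragments had groups separated upward in NonCM, where 13.9% of all genes did. C3ar1, the C3a receptor, rose, with 310, 282 and 309 in Wls fl/fl libraries against 216, 246 and 222 in control libraries (log2 difference 0.40 ± 0.08 SE, limma adjusted p = 0.0305). C5ar1, the C5a receptor, had 261 to 274 in Wls fl/fl libraries against 172 to 231 in control libraries (log2 difference 0.45 ± 0.11 SE, limma adjusted p = 0.0518). The lowest Wls fl/fl library lay above the highest control library for each receptor. The C3ar1 call was lost without Wls fl/fl replicate 1, 2 or 3 (limma adjusted p = 0.108, 0.0998 and 0.182) and without control replicate 3 (0.118).

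Of the 4 regulators that protect cells from complement, Cd55 rose and 3 were not called by limma. Cd55, the decay-accelerating factor that takes convertases apart, had 374, 361 and 357 in Wls fl/fl libraries against 266, 225 and 225 in control libraries (log2 difference 0.61 ± 0.08 SE, limma adjusted p = 0.00633), the smallest adjusted p of all members. The groups were far apart, with control replicate 1 the highest of the controls. The call was lost without Wls fl/fl replicate 3 (limma adjusted p = 0.0581). Mouse Cd55 has a neighbouring copy, Cd55b, and an antisense gene overlaps its exons, while whether counting used the strand is not given. Serping1, the C1 inhibitor and the most abundant regulator, had 2114, 1991 and 2054 in Wls fl/fl libraries against 1508, 1840 and 1708 in control libraries (log2 difference 0.29 ± 0.07 SE, limma adjusted p = 0.0560). Its groups did not overlap. Cd59a, which blocks the membrane attack complex, had a log2 difference of -0.18, and Cd46, a cofactor of C3b cleavage, had 0.36 ± 0.39 SE, and both had overlapping groups.

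**Figure D3:**
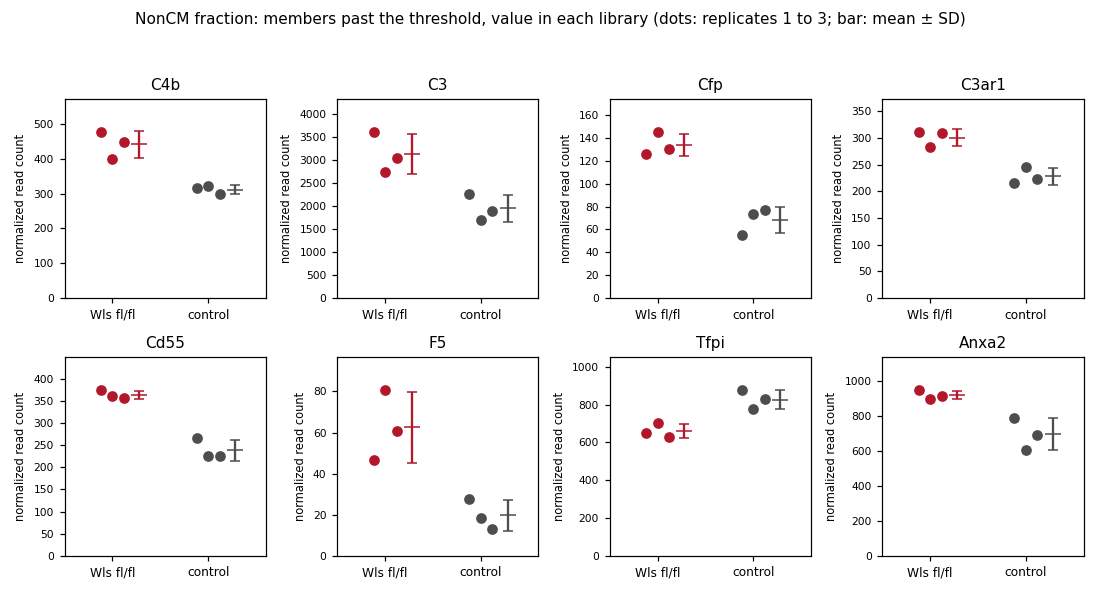
Normalized value in each NonCM library for the 8 members called by limma, Wls fl/fl libraries left of control libraries, each panel with its own axis from 0 and bars for the mean ± SD. The groups do not overlap in any panel, and only Tfpi is lower in the Wls fl/fl libraries.

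Of the 8 procoagulant genes, F5 rose in NonCM and no other was called by limma. F5, factor V, the cofactor of factor Xa, was low, with 46.4, 80.5 and 60.5 in Wls fl/fl libraries against 27.7, 18.3 and 13.04 in control libraries (log2 difference 1.64 ± 0.30 SE, limma adjusted p = 0.0209). The groups were separated, and the values rest on 275 reads in Wls fl/fl libraries and 47 reads in control libraries. The call was lost without Wls fl/fl replicate 2 or 3 (limma adjusted p = 0.128 for each) or control replicate 3 (0.0736). F10, factor X, which factor V assists, had 13.35, 15.97 and 24.7 in Wls fl/fl libraries against 0, 3.81 and 3.62 in control libraries, or 78 reads against 10. Because it passed the minimum value only through the Wls fl/fl libraries, its log2 difference of 2.71 ± 0.66 SE (limma adjusted p = 0.0543) had to differ, and it is given as a description chosen after its values were seen.

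The abundant clotting genes of NonCM were not called by limma. Vwf, which tethers platelets to the vessel wall, had 3764, 3166 and 3302 in Wls fl/fl libraries against 3742, 4423 and 4150 in control libraries (log2 difference -0.27 ± 0.08 SE, limma adjusted p = 0.0954). Wls fl/fl replicate 1 lay just above control replicate 1, so the groups overlapped. F13a1 had a log2 difference of 0.30 (limma adjusted p = 0.184) with overlapping groups, F3 of -0.24 (0.312), F8 of -0.18 (0.717) and F2r, the thrombin receptor, of 0.10 (0.420). F7 had 1.495 to 3.33 in Wls fl/fl libraries against 0.724 to 5.54 in control libraries and was not tested.

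Among the 6 anticoagulant genes, Tfpi fell in NonCM and no other was called by limma. Tfpi had 648, 704 and 632 in Wls fl/fl libraries against 876, 776 and 828 in control libraries (log2 difference -0.32 ± 0.07 SE, limma adjusted p = 0.0314). All Wls fl/fl libraries lay below all control libraries. The call was lost without Wls fl/fl replicate 1, 2 or 3 (limma adjusted p = 0.102, 0.0823 and 0.188) or control replicate 3 (0.118). Thbd, thrombomodulin, which turns thrombin into an anticoagulant, had 1041, 1023 and 1052 in Wls fl/fl libraries against 1042, 824 and 888 in control libraries (log2 difference 0.18 ± 0.08 SE, limma adjusted p = 0.255). Its groups overlapped at control replicate 1. Procr, the protein C receptor, had a log2 difference of -0.24, Pros1, protein S, of 0.20, and Serpine2, protease nexin, of 0.29, with limma adjusted p of 0.449, 0.299 and 0.192. Serpind1, heparin cofactor II, had a mean under 10 and was not tested.

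All 4 fibrinolysis genes lay above 0 in NonCM, where 53.2% of all genes did, and Anxa2 rose. Anxa2, a cell-surface platform for plasminogen and its activator, had 948, 902 and 916 in Wls fl/fl libraries against 793, 607 and 694 in control libraries (log2 difference 0.41 ± 0.09 SE, limma adjusted p = 0.0362). The groups did not overlap. The call was lost without Wls fl/fl replicate 1, 2 or 3 (limma adjusted p = 0.119, 0.141 and 0.174) or control replicate 3 (0.124). Plat, tissue plasminogen activator, had 237 to 283 in Wls fl/fl libraries against 188 to 222 in control libraries (log2 difference 0.35, limma adjusted p = 0.0857), with separated groups. Plau, urokinase, had a log2 difference of 0.17 and its receptor Plaur of 0.57 ± 0.24 SE, both with overlapping groups. Serpinf1, a serpin without known protease inhibition that counters vessel growth, had 425, 524 and 510 in Wls fl/fl libraries against 388, 392 and 369 in control libraries (log2 difference 0.34 ± 0.09 SE, limma adjusted p = 0.0608). Its groups did not overlap.

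Tests on the recovered reads called more members in NonCM. edgeR and limma-voom each called 16 up and 2 down, or 15 up with F10 set aside, where 5.73% and 5.16% of all genes were called up and down by edgeR, and 5.67% and 5.46% by limma-voom. Beyond the 8 members above, edgeR called C1qb, C1qc, C1s1, C5ar1, Serping1, F10, Thbd, Plat and Serpinf1 up and Vwf down. DESeq2 called 8 up and 2 down, Vwf and Tfpi, of the 27 members to which it gave an adjusted p. Of all genes with one, 3.36% and 2.99% were called in these directions. Without control replicate 1, the shallowest library, limma called 17 up and 2 down, F10 among those up. Without control replicate 2 it called 12 up, again with F10, and without control replicate 3 it called 2 up. Without Wls fl/fl replicate 1, 2 or 3 it called 6, 3 and 0 up. The share of all genes called in these fits is not given, so the counts show only how the calls depend on single libraries. Exons of 7 members overlap a gene on the opposite strand, namely Anxa2, C1s1, C2, Cd46, Cd55, F13a1 and F5, and reads of such pairs cannot be told apart unless counting used the strand.

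Other genes of the same cascades were also tested in NonCM, to be read beside the 2.47% of all genes called up and 2.03% called down. Of 35 further complement genes 16 were tested, and 2 rose and 1 fell by limma, with a median log2 difference of 0.09. Itgb2, the shared chain of the complement receptors CR3 and CR4, had 222 ± 19.1 in Wls fl/fl libraries and 106 ± 29.7 in control libraries (SD, n = 3 each; log2 difference 1.09, limma adjusted p = 0.0187). Colec12, a scavenger receptor of the collectin family, rose by 0.37, and Clu, clusterin, which blocks the membrane attack complex, fell by 0.29 on the log2 scale (limma adjusted p = 0.0243 and 0.0203). Of 29 further coagulation genes 6 were tested and none was called, with 3 at an unadjusted p under 0.05. Of 11 further fibrinolysis genes 6 were tested and 2 rose: S100a10, the partner of annexin A2 in plasminogen binding, by 0.48, and Lrp1, which clears protease-inhibitor complexes, by 0.32 (limma adjusted p = 0.0186 and 0.0264). None of these genes was called by limma without replicate 3 of both genotypes.

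Marker genes of several cell types moved in NonCM beside the members. Summed macrophage markers made up 0.171% to 0.183% of reads in Wls fl/fl libraries and 0.121% to 0.150% in control libraries, with 3 of 14 called up and a median log2 difference of 0.38. Fibroblast markers made up 1.78% to 1.88% in Wls fl/fl libraries and 1.27% to 1.33% in control libraries, with 9 of 12 called up and a median of 0.54. Monocyte and neutrophil markers made up 0.00509% to 0.0153% in Wls fl/fl libraries and 0.0025% to 0.00331% in control libraries, with 2 of 7 tested called up and a median of 1.88. That median is the value of Plac8, which was among the 2 called. Plac8 had a mean of 23.6 in Wls fl/fl libraries and 5.77 in control libraries, and Retnlg had 19.9 and 7.83. Both passed the minimum value only through the Wls fl/fl libraries, as F10 did, so the filter favoured their direction. The median is therefore not compared with the log2 differences of the members. No gene of these 3 marker lists was without reads in all NonCM libraries, and their part in the result was not tested.

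Endothelial markers moved the other way, at 0.243% to 0.252% in Wls fl/fl libraries and 0.264% to 0.277% in control libraries, with 1 of 12 called down and a median log2 difference of -0.15. Cardiomyocyte markers had 12 of 16 called down and a median of -0.28. These medians stand beside -0.32 for Tfpi and -0.27 for Vwf, while Thbd, also known from endothelium, went the other way at 0.18. In CM, where Tfpi had -0.24 and was not called, the endothelial median was -0.06 and the cardiomyocyte median 0.04. The part of these markers in the values of Tfpi, Vwf and Thbd was not tested. Mesothelial markers had 1 of 7 tested called up (summed share 0.0152% to 0.0173% in Wls fl/fl libraries, 0.00702% to 0.0137% in control libraries), and mast cell markers 1 of 5 (0.00534% to 0.00622% in Wls fl/fl libraries, 0.0037% to 0.00465% in control libraries). Of mural markers 1 of 10 was called down (0.174% to 0.180% in Wls fl/fl libraries, 0.179% to 0.183% in control libraries). Of 8 hepatocyte markers, 4 had no read in any library and 1 was tested, which fell, with a summed share of at most 0.00256% in Wls fl/fl libraries and 0.00327% in control libraries. No platelet (2 tested), erythroid (6 tested) or adipocyte (1 tested) marker was called. Their summed shares in Wls fl/fl and control libraries were 0.00385% and 0.00292% for platelet, 0.0534% and 0.0514% for erythroid, and 0.0590% and 0.0674% for adipocyte markers.

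**Figure D4:**
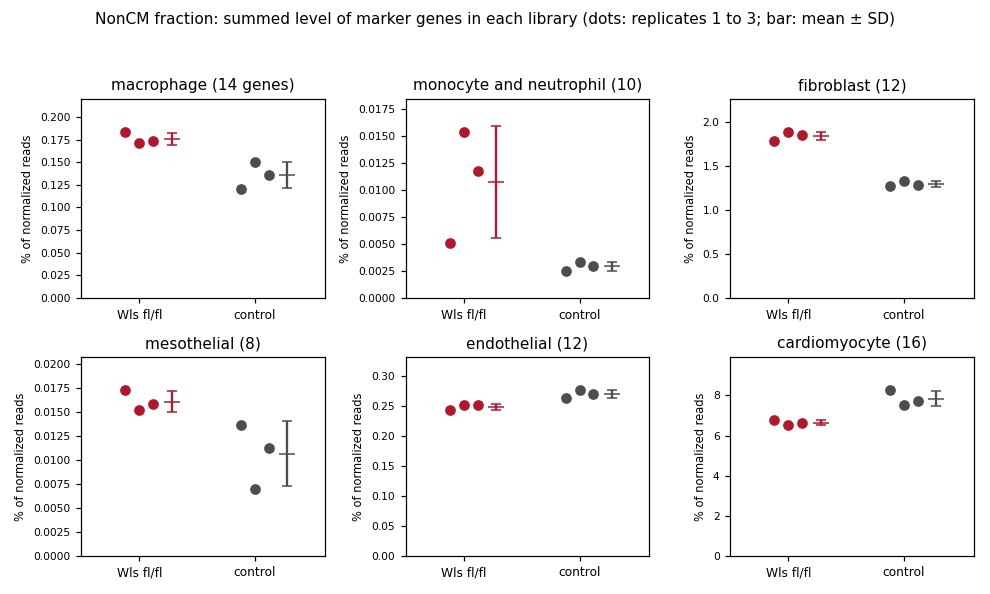
Summed share of reads of 6 marker lists in every NonCM library, in percent, Wls fl/fl libraries left of control libraries, with dots for libraries and a bar for the mean ± SD. Macrophage, monocyte and neutrophil, fibroblast and mesothelial markers are higher in all 3 Wls fl/fl libraries, and endothelial and cardiomyocyte markers are lower in all 3.

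In sum the 37 members made up 0.317% to 0.355% of reads in Wls fl/fl libraries and 0.277% to 0.283% in control libraries of NonCM.

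In CM no member was called. Of the 27 tested, 12 lay above 0, where 50.1% of 11944 genes did, and the median log2 difference was -0.01 over members and 0.00 over all genes. By limma 0.067% of all genes were called up and 0.0251% down, and at an unadjusted p under 0.05 there were 3 members up and 3 down, where 4.91% and 3.83% of all genes were. edgeR, limma-voom and DESeq2 called no member either, with 6, 5 and 2 members at an unadjusted p under 0.05. The share of all genes at such a p was not counted for these tools. Among all genes edgeR called 0.067% up and 0.0335% down, limma-voom 0.0837% and 0.0586%, and DESeq2 0.146% and 0.0781%. With replicate 3 of both genotypes left out, no member was called by limma or edgeR, and each tool called 0.00838% of all genes up and 0.00838% down. Groups were separated upward for C1qb and downward for F3, F8, F2r and Tfpi, where 7.97% and 7.05% of all genes separated in these ways. Together the members made up 0.0592% ± 0.000558 of reads in Wls fl/fl libraries and 0.0595% ± 0.00163 in control libraries (SD, n = 3 each).

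Tfpi, the member with the highest CM value, had 806, 799 and 746 in CM of Wls fl/fl hearts against 967, 902 and 902 in CM of control hearts. All Wls fl/fl libraries lay below all control libraries, by a log2 difference of -0.24 ± 0.06 SE, with limma adjusted p = 0.2798. C3 had 276, 287 and 288 in Wls fl/fl libraries against 281, 189 and 240 in control libraries (log2 difference 0.28 ± 0.12 SE, limma adjusted p = 0.558). Its groups overlapped at control replicate 1. Vwf had 610, 616 and 647 in Wls fl/fl libraries against 662, 633 and 661 in control libraries (log2 difference -0.06, limma adjusted p = 0.782), and the groups overlapped.

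The leading CM members of the other roles also had overlapping groups. Serping1 had 163, 207 and 207 in Wls fl/fl libraries against 177, 170 and 175 in control libraries (log2 difference 0.14, limma adjusted p = 0.737). Anxa2 had 253, 213 and 245 in Wls fl/fl libraries against 183, 213 and 204 in control libraries (log2 difference 0.24, limma adjusted p = 0.518). Masp1 had a log2 difference of -0.11, C3ar1 of -0.01 and Serpinf1 of -0.17, with limma adjusted p of 0.876, 0.998 and 0.902. C2, Cfb, Cfd, Cfp, C5ar1, F5, F7, F10, Serpind1 and Plaur had a CM mean under 10 and were not tested. In CM no marker list had a called gene, and further genes of the 3 cascades had none either. Macrophage markers summed to 0.00669% in Wls fl/fl libraries and 0.00689% in control libraries.

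Whether the effect of genotype differed between fractions was asked by the interaction in the joint edgeR fit, which holds no term for hearts. None of the 33 members was called, where 0.336% of all genes were called positive and 1.1% negative. limma-voom called none, and DESeq2 called none of the 9 members to which it gave an adjusted p. At an unadjusted p under 0.05 there were 5 members by edgeR and 6 by limma-voom. The share of all genes at such a p was not counted. C3 differed by 0.46 on the log2 scale, NonCM difference minus CM difference (edgeR adjusted p = 0.217), Plat by 0.56 (0.178) and Tfpi by -0.07 (0.815). In this fit the calls in NonCM and their absence in CM are not shown to differ. C3 alone passed the threshold for the interaction without a minimum value, and again with a term for hearts inferred from library numbers (log2 difference 0.39, edgeR adjusted p = 0.0160). The share of all genes called in either fit is not given, and both fits include replicate 3. With replicate 3 of all groups left out, the interaction called no member, and C3 had 0.45 (edgeR adjusted p = 0.762).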

How the data were processed

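Total RNA of 12 heart libraries was sequenced in bulk, 3 for each group of fraction and genotype, as the labels' genotype and source give them. Per the submitters' processing notes, STAR, DESeq2 and the build mm10 were used, without versions. Which annotation and counting tool were used, with which strand setting, and whether reads were trimmed, is not given in the sources used here. As for units, the deposited signal values, in 1 table per fraction, are read counts per gene that the authors divided by a size factor within that table. Whole reads were recovered from them, because 100% of the values were whole multiples of the value of 1 read (tolerance 0.01 reads). Per the file headers, the authors' tables also hold DESeq2 log2 fold changes, a test score (the Wald statistic) and p-values, which were not used. Replicates were numbered in accession order, which pairs no libraries, and the labels do not state which libraries share a heart.

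Within each table limma 3.58.1 in R 4.3.3 (lmFit, eBayes with trend) compared Wls fl/fl with control on log2(value + 1), using every gene whose mean was at least 10. Benjamini-Hochberg adjustment covered all of these genes, and a call needed an adjusted p under 0.05. A joint fit of recovered reads by edgeR 4.0.16 (quasi-likelihood, TMM scaling) gave the contrast of fractions and the interaction. RPKM used exon lengths of GENCODE M21, in which all 37 members matched 1 gene. Depth was 1160146 to 10281214 reads per library. No exact test was run on single genes, since 3 libraries against 3 cannot give a two-sided permutation p below 0.1.

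The members, the lists of further pathway genes and cell type markers, and the tests were chosen with earlier results of these data known. Values per library are printed for members called in a genotype comparison and for the highest member of each role, and values of up to 3 called genes for each further pathway list. Values of C5ar1, F10, F7, F2r, Cfb, Cfd and Plat were added after they had been seen. The alternatives comprised other scaling (TMM, upper quartile), no minimum value, a minimum mean of 50, and pseudocounts of 0.5 and 5. Recovered reads were also tested with edgeR, limma-voom and DESeq2 1.42.0, and libraries were left out one by one, as was replicate 3 of both genotypes together. edgeR without those replicates, counts without F10, and a joint fit with 1 term per heart, inferred from library numbers, were added after the data were seen. The code was tested on simulated data.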

Additional observations from a re-analysis of the deposited data

Results flagged for a closer look

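F2r, which encodes the thrombin receptor PAR1, had separated groups in both fractions, with opposite signs. In NonCM it had values of 413, 407 and 420 in Wls fl/fl libraries against 383, 390 and 387 in control libraries, and in CM 159, 154 and 153 in Wls fl/fl libraries against 174, 179 and 161 in control libraries. All 3 Wls fl/fl libraries lay above the controls in NonCM and below them in CM. The NonCM difference minus the CM difference was 0.22 on the log2 scale, with an unadjusted p of 0.0368 and an adjusted p of 0.314 in the joint edgeR fit of 12 libraries, which is not past the threshold. In neither fraction was F2r called by itself. F2r was picked for this opposite separation, so its interaction p comes from the values that picked it. How many of all genes separate in this way was not counted.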

How the results depend on the processing

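In NonCM the 7 members called up and 1 called down became 16 up and 2 down by edgeR. limma-voom also called 16 up and 2 down, and DESeq2 called 8 up and 2 down of the 27 members to which it gave an adjusted p. F10 passed the minimum value only through the Wls fl/fl libraries, and with it set aside edgeR and limma-voom each called 15 up. Leaving out 1 library at a time gave 0 to 17 up, F10 among the 17, and 0 to 2 down. The share of all genes called in those fits is not given. Without replicate 3 of both genotypes the counts were 0 up and 0 down by limma, and 0 up and 0 down by edgeR. The interaction called 1 member, C3, with no minimum value, and none with replicate 3 of all groups left out. The cause of these changes was not tested, and fewer libraries enter each fit that leaves one out. The log2 differences of the 8 called members kept their sign under every alternative run. Of these 8, DESeq2 did not call C3ar1 (log2 difference 0.38) and gave F5 no adjusted p.

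Both fractions came from each heart, and the CM library numbers in the titles are 6 above the NonCM numbers, which could mark shared hearts but is not stated as such. Under that pairing, deviations from the group means over 8427 genes correlated by 0.0361 to 0.304 between the libraries of a heart. The correlation was above 0.1 in 5 of 6 pairs, and each library of NonCM but Wls fl/fl replicate 3 correlated best with its own pair. With hearts as a replicate block, the interaction called 1 member, C3, and the fraction contrast called 26 higher and 3 lower. The share of all genes called in this block fit is not given. Between genotypes within a fraction, no paired analysis was possible because each heart gave 1 library of 1 genotype. Depth limits the low members most: in NonCM control replicate 1 a single read of F10 or F5 equals 5.54.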
